A study of Mus musculus with 12 samples.

Results

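The genes described here are 8 mouse genes of the machinery that divides mitochondria: Dnm1l, Fis1, Mff, Mief1, Mief2, Gdap1, Mtfr1 and Mtfp1. They were chosen by name and matched by symbol to Ensembl gene identifiers, and all 8 were found among the 49548 genes counted in the lumbar spinal cord of 12 mice. All 8 also passed the filter on low values (more than 1 CPM in at least 3 of the 12 libraries), which left 15942 genes tested. For the filter, CPM were a library's reads for a gene scaled to its total. The CPM printed below were scaled to the TMM factor as well. RNA was taken at 30 days of age from mice that had received no treatment. The MFN2 group (n = 8, labelled CMT2A) was the MitoCharc1 line, hemizygous for Tg(Eno2-MFN2*R94Q)L51Ugfm on a B6;D2 background. These animals express human MFN2 carrying R94Q from the rat Eno2 promoter, which is active in neurons, and keep both copies of their own Mfn2. The WT group (n = 4) was labelled C57BL/6 and was described by the study as littermates without the transgene. As a model of the disease the line is therefore limited to a transgene expressed mainly in neurons, on top of a normal mouse gene.

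Mitochondria are split by Dnm1l (Drp1), a dynamin-related GTPase that is recruited from the cytosol, assembles into a ring around the organelle and constricts it. Recruitment uses adaptors in the outer mitochondrial membrane, among them Mff, Fis1 and the paired proteins MiD51 (Mief1) and MiD49 (Mief2). Division is opposed by fusion, in which Mfn2 and Mfn1 join the outer membranes and Opa1 the inner ones. Gdap1, an outer membrane protein of neurons that promotes division, stands at the meeting point with inherited neuropathy, because mutations in it, as in MFN2, cause Charcot-Marie-Tooth disease with loss of axons. The comparison of MFN2 with WT mice asked whether a mutant fusion protein in neurons is accompanied by changed RNA levels on the fission side.

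Libraries held between 19359454 and 26738930 counts in the MFN2 group (median 23074724) and between 19453238 and 23564568 in the WT group. Library numbers came in a low run, 41 to 43 (MFN2) and 44 to 47 (WT), and a high run, 72 to 76 (MFN2), so that for libraries 72 to 76 genotype and number run cannot be told apart. The MFN2 mice are therefore also given as libraries 41 to 43 and 72 to 76, each set against the same 4 WT libraries. Library 43 stood apart from the other 11. Its 8 forebrain neuron markers (Neurod6, Neurod2, Tbr1, Slc17a7, Camk2a, Nrgn, Ddn and Icam5, the most abundant being Camk2a) summed to 4685 CPM, against 109 to 207 CPM in the others. Its 8 caudal Hox genes of the cord, the most abundant being Hoxb8, summed to 41.6 CPM, against 240 to 302 CPM in the others. Its motor neuron, oligodendrocyte and astrocyte sums were also the lowest of the 12 libraries. The other 11 libraries carried these Hox genes of the spinal cord, whose sum was not used to tell levels of the cord apart. For the comparisons that include library 43, counts of called genes are given with and without it. Values of single genes without it are given for some genes only.

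Mfn2 itself was read at 194, 222, 228 and 209 CPM in WT libraries 44 to 47, at 211, 221 and 223 CPM in libraries 41 to 43 and at 212, 190, 204, 200 and 190 CPM in libraries 72 to 76. The groups overlapped, with a log2 fold change of -0.05 for MFN2 against WT (standard error, SE, 0.07, adjusted p = 0.733, edgeR) and of -0.06 without library 43 (SE 0.06, adjusted p = 0.554). The files count mouse genes and the human transgene was not analysed here, so the mouse gene's level does not check the genotype labels.

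Compared per length of annotated exon (RPKM), the fission genes of WT mice spanned a 19.3-fold range from Fis1 to Mtfr1. Fis1 stood highest at 37.7 ± 3.74 RPKM (SD, n = 4), at the 94.2nd percentile of tested genes, and Dnm1l followed at 34.0 ± 1.18 RPKM. The WT ranges of these genes overlapped, so their order was not separated by the spread between mice. Mff had 14.6 ± 0.427 RPKM, Gdap1 13.4 ± 0.457 RPKM and Mtfp1 10.4 ± 1.14 RPKM. Mief2 (4.60 ± 0.187 RPKM) lay above its paralog Mief1 (3.85 ± 0.183 RPKM), and Mtfr1 was the lowest at 1.95 ± 0.0943 RPKM. Among the 4 WT mice no neighbours below Dnm1l overlapped, but over all 12 libraries Mff overlapped Gdap1, Mief2 overlapped Mief1, while Mtfp1 lay below all Gdap1 values in 11 libraries and above them in library 43. RPKM divides by all annotated exon bases of a gene, which counts rarely used exons of genes with many transcripts such as Mff (16 transcripts, 9757 exon bases). The order depends on this division, and the sources differ on the library kit. By CPM in WT mice, Mief1 (31.2 CPM) lay above Mief2 (12.5 CPM), and Fis1 (64.6 CPM) lay below Dnm1l, Mff and Gdap1.

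**Figure D1:**
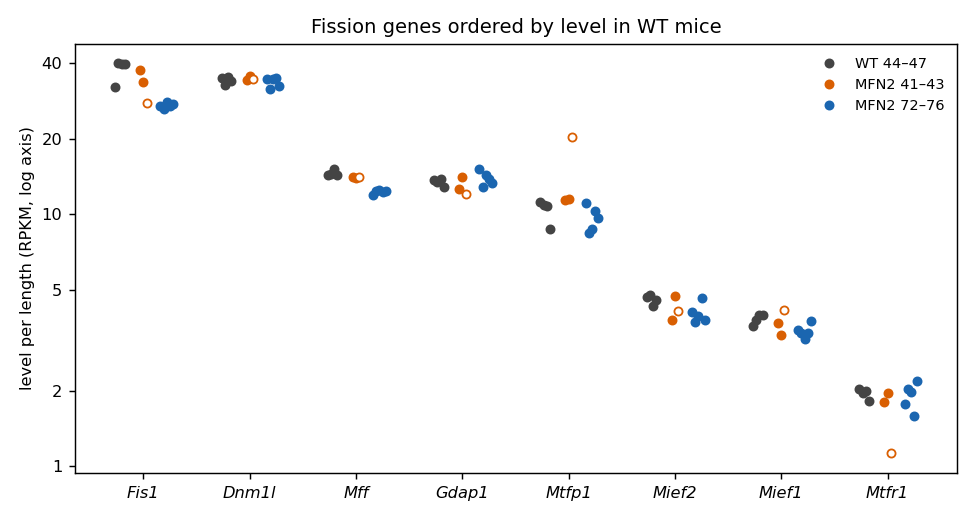
Level per length (RPKM, log axis) of the 8 fission genes in each of the 12 libraries, ordered by their WT mean; each point is 1 mouse, in columns for WT (grey), MFN2 libraries 41 to 43 (orange, library 43 open) and MFN2 libraries 72 to 76 (blue). Fis1 lies above Dnm1l in 3 of 4 WT mice and below Dnm1l in all 5 mice of libraries 72 to 76, and Mtfp1 of library 43 stands alone at 20.4 RPKM.

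The members called in libraries 72 to 76 against WT were Fis1 and Mff, while the other adaptors Mief1 and Mief2 were not called. Fis1, a tail-anchored protein named for its role in fission in yeast, lies at chr5:136953275-136966234 on the plus strand (GRCm38), and Mff, the mitochondrial fission factor that recruits Dnm1l, at chr1:82724890-82752394 on the plus strand. Since both were lower in that comparison, their promoters are shown, as the 250 bases before the first RefSeq start site (RefSeq, GRCm38.p6, plus strand), with every match of 5 motifs in capitals. The motifs, searched on both strands, were CGCATGCG (the core of the NRF1 site), CCGGAAG (ETS), GGGCGG (Sp1, CCGCCC on the other strand), CCAAT and TATAAA. The Fis1 window is chr5:136953025-136953274 and the Mff window chr1:82724640-82724889.
Fis1: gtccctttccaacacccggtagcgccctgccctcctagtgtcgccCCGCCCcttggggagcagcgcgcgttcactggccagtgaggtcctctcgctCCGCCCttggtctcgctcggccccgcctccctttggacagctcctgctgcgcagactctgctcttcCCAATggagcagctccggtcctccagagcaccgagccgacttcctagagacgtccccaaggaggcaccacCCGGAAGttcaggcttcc
Mff: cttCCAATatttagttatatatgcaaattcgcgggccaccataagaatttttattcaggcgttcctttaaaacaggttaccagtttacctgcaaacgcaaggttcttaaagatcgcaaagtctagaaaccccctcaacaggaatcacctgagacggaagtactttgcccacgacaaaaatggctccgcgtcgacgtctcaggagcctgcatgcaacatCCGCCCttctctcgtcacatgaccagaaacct

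The Fis1 window was 66.8% GC and held CCGGAAG starting 18 bases before the start site, CCAAT 88 bases before it, and GGGCGG on the reverse strand 154 and 205 bases before it. The Mff window was 46% GC and held GGGCGG on the reverse strand 32 bases before the start site and CCAAT 247 bases before it. No matches overlapped, and neither window held CGCATGCG or TATAAA. Among 32851 mouse promoter windows of this length, CCGGAAG was present in 6.91%, GGGCGG in 32.7%, CCAAT in 33.8%, CGCATGCG in 1.55% and TATAAA in 12.4%, so GGGCGG and CCAAT, the motifs found in both windows, are common ones. The table held promoters for 6 of the 8 members, not for Gdap1 and Mtfr1.

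Fis1 read 55.0, 68.1, 67.5 and 67.8 CPM in WT libraries 44 to 47. It read 64.2, 57.3 and 47.4 CPM in MFN2 libraries 41 to 43 and 46.1, 45.002, 47.8, 46.1 and 46.9 CPM in libraries 72 to 76. All 5 libraries of the high run therefore lay below every WT library in a narrow band (46.4 ± 1.05 CPM, n = 5, against 64.6 ± 6.42 CPM in WT, n = 4), whereas libraries 41 and 42 lay inside the WT range and library 43 inside the band of the high run. WT library 44 was itself the lowest of its group.

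Mff read 139, 141, 148 and 140 CPM in WT libraries 44 to 47. It read 137, 136 and 137 CPM in libraries 41 to 43 and 117, 121, 122, 120 and 121 CPM in libraries 72 to 76. All 8 MFN2 libraries were below all 4 WT libraries, by a small margin in libraries 41 to 43 (137 ± 0.599 CPM, n = 3, against 142 ± 4.16 CPM in WT) and a wider one in libraries 72 to 76 (120 ± 2.06 CPM, n = 5). Of all tested genes, 1.07% had every MFN2 library below every WT library. Mff shares 195 exon bases with C430014B12Rik on the opposite strand, which read 0.62 ± 0.32 CPM in WT and 0.37 ± 0.18 CPM in MFN2 mice. The strand setting of the counting is not given in the sources used here, so reads in those shared bases cannot be assigned to either gene with certainty.

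Dnm1l (chr16:16312230-16358959, minus strand), the GTPase itself, read 182, 169, 182 and 176 CPM in WT mice. It read 177, 185 and 179 CPM in libraries 41 to 43 and 180, 163, 179, 181 and 168 CPM in libraries 72 to 76. The 3 sets overlapped throughout, with means of 177 ± 6.14 CPM in WT (n = 4) and 176 ± 7.18 CPM in MFN2 mice (n = 8).

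Mief1 (chr15:80234018-80253371, plus strand) and Mief2 (chr11:60728398-60732951, plus strand) encode the MiD adaptors, which bind Dnm1l at the outer membrane. Mief1 ranged from 29.2 to 32.4 CPM in WT mice and from 26.0 to 33.8 CPM in MFN2 mice (median 27.8 CPM), the highest value being that of library 43. Mief2 ranged from 11.8 to 13.0 CPM in WT mice and from 10.2 to 12.9 CPM in MFN2 mice (median 10.9 CPM). For Mief1 5 of the 8 MFN2 libraries and for Mief2 6 of 8 lay under the WT range, and the groups overlapped for both genes. Mief1 shares 213 exon bases and Dnm1l 243 exon bases with another annotated gene not analysed here.

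Gdap1 (chr1:17145362-17164271, plus strand) read 106, 104, 107 and 98.9 CPM in WT mice. It read 97.4, 109 and 93.5 CPM in libraries 41 to 43 and 117, 99.5, 111, 107 and 103 CPM in libraries 72 to 76. The MFN2 libraries lay on both sides of the WT range, and the means were 104 ± 3.54 CPM in WT (n = 4) and 105 ± 7.76 CPM in MFN2 mice (n = 8).

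Mtfr1 (chr3:19187327-19220817, plus strand), a regulator of mitochondrial division, was the least abundant member and was read from 105 to 224 counts per library. It ranged from 7.93 to 8.86 CPM in WT mice and from 4.93 to 9.58 CPM in MFN2 mice (median 8.21 CPM), the lowest being library 43. Mtfp1 (chr11:4091480-4095445, minus strand), also called MTP18, is a protein of the inner membrane that promotes division. It read 19.6, 18.9, 18.7 and 15.2 CPM in WT mice, 19.8, 19.9 and 35.4 CPM in libraries 41 to 43 and 19.3, 14.6, 15.2, 17.9 and 16.8 CPM in libraries 72 to 76. Library 43, the library with the forebrain markers, held the highest Mtfp1 value of all 12, while the other 11 lay between 14.6 and 19.9 CPM.

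**Figure D2:**
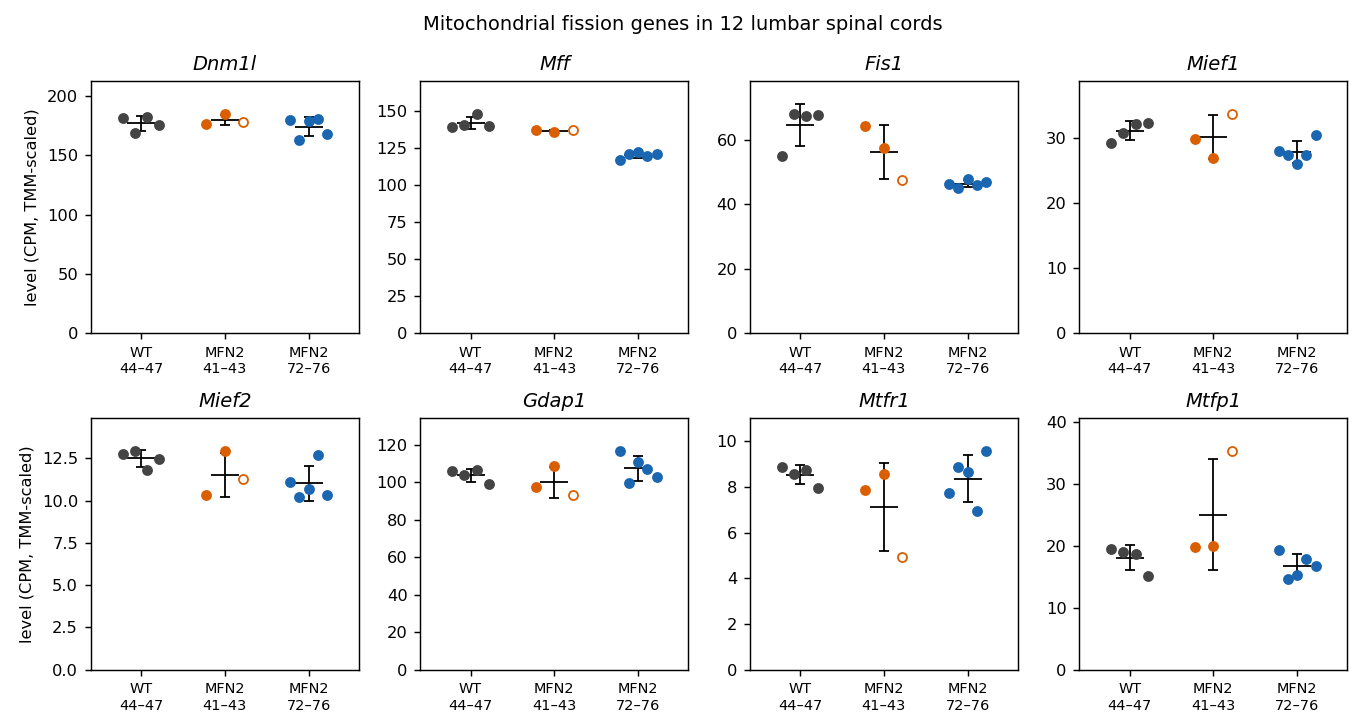
CPM (scaled by TMM, linear axes starting at 0) of each fission gene in each of the 12 libraries; points are mice, bars are the mean ± SD of WT (n = 4), MFN2 libraries 41 to 43 (n = 3, library 43 open) and MFN2 libraries 72 to 76 (n = 5). Fis1 and Mff of libraries 72 to 76 lie below all WT points, Gdap1 and Dnm1l overlap across the sets, and Mtfp1 of library 43 lies apart.

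For all 8 MFN2 against all 4 WT mice, 0 of 8 fission genes passed an adjusted p of 0.05, and 0.00% of all tested genes did (edgeR quasi-likelihood test with Benjamini-Hochberg adjustment over 15942 genes). At an unadjusted p under 0.05 there were 2 of 8 members, Fis1 and Mff, and 2386 tested genes (15.0%), and DESeq2 called 200 genes, 0 of them fission genes. Fis1 had a log2 fold change of -0.37 (SE 0.10, 95% interval -0.59 to -0.14, adjusted p = 0.254) and Mff of -0.17 (SE 0.06, 95% interval -0.30 to -0.03, adjusted p = 0.278). Gdap1 had 0.01 (SE 0.06, 95% interval -0.13 to 0.15, adjusted p = 0.944), which bounds its difference to between 0.914-fold and 1.11-fold of WT. Dnm1l had -0.0063 (SE 0.05, 95% interval -0.12 to 0.10), Mief1 -0.12 and Mief2 -0.16 (SE 0.07 and 0.08), and Mtfr1 -0.11 and Mtfp1 0.13 (SE 0.14 and 0.20). The values of 6 of 8 members were below 0, with a median of -0.11 beside 0.0038 over all tested genes. Without library 43, 0 of 8 members were called, beside 0.119% of tested genes (19 genes), Mtfp1 changed sign to -0.04 and Mtfr1 moved to -0.04, whereas Fis1 stayed at -0.35 (adjusted p = 0.112) and Mff at -0.19 (adjusted p = 0.119). There 3 of 8 members had an unadjusted p under 0.05, beside 21.1% of tested genes, the third being Mief1, and DESeq2 called Fis1 (-0.35, adjusted p = 0.0400) and Mff (-0.18, adjusted p = 0.0438) among 741 genes, so for these 11 libraries the call depends on the tool. With the number run as a covariate and all 12 libraries, Fis1 had -0.20 (adjusted p = 0.370) and Mff -0.05 (adjusted p = 0.604).

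Within the low run, libraries 41 to 43 against WT, 0 of 8 members were called by edgeR (0 at an unadjusted p under 0.05, 0 by DESeq2), beside 0.00627% of tested genes (1 gene). Fis1 had a log2 fold change of -0.18 (SE 0.13, 95% interval -0.47 to 0.11), Mff -0.04 (SE 0.07, 95% interval -0.20 to 0.12) and Gdap1 -0.04 (SE 0.08, 95% interval -0.23 to 0.16). The intervals of Fis1 and Mff thus held both 0 and differences as large as 0.720-fold and 0.871-fold of WT. Without library 43 the count was again 0 of 8, beside 0.00627% of tested genes, Fis1 had -0.08 (95% interval -0.30 to 0.15), and Mtfp1 moved from 0.48 to 0.15.

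In libraries 72 to 76 against the same WT libraries, Fis1 and Mff fell and the other 6 members did not pass the test. Fis1 fell to 0.720-fold of WT (log2 fold change -0.47, SE 0.06, 95% interval -0.61 to -0.33, adjusted p = 6.281e-04, edgeR), and Mff fell to 0.848-fold (log2 fold change -0.24, SE 0.04, 95% interval -0.33 to -0.15, adjusted p = 0.00229). These 2 of 8 members stood beside 23.5% of all tested genes called in this comparison, 1812 higher and 1941 lower. The share of members called was thus near the background of this fit. Without library 45, 2355 tested genes were called, and the fission genes called were again 2. Mief1 had -0.16 (95% interval -0.29 to -0.03, adjusted p = 0.0795) and Mief2 -0.18 (95% interval -0.36 to 0.0062, adjusted p = 0.146). Gdap1 had 0.05 (SE 0.06, 95% interval -0.07 to 0.17, adjusted p = 0.529) and Dnm1l -0.02 (SE 0.05, 95% interval -0.13 to 0.09, adjusted p = 0.796). Mtfr1 had -0.03 (SE 0.11) and Mtfp1 -0.11 (SE 0.10). The values of 7 of 8 members were below 0, with a median of -0.13 beside 0.0045 over all tested genes. Both called members had groups that did not overlap, as did 19.7% of tested genes.

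The direct comparison inside the MFN2 genotype, libraries 72 to 76 against 41 to 43, is the test of whether the results from the low and high runs differ. With library 43 included, 0 of 8 members were called by edgeR, beside 2.29% of tested genes. Mff, Fis1 and Mtfp1 had unadjusted p under 0.05, beside 24.5% of tested genes, and DESeq2 called 1 member, Mff, among 1775 genes. Mff had -0.20 (SE 0.05, adjusted p = 0.0863), Fis1 -0.29 (SE 0.09, adjusted p = 0.122) and Mtfp1 -0.58 (SE 0.20, adjusted p = 0.129). Without library 43, 2 of 8 members were lower in libraries 72 to 76, beside 14.6% of tested genes. They were Fis1 at 0.762-fold (log2 fold change -0.39, SE 0.06, 95% interval -0.53 to -0.25, adjusted p = 0.00326) and Mff at 0.877-fold (log2 fold change -0.19, SE 0.05, 95% interval -0.30 to -0.08, adjusted p = 0.0325). Gdap1 had 0.06 there (SE 0.08, adjusted p = 0.668), and Mtfp1 moved to -0.25 (SE 0.11, adjusted p = 0.165). Libraries 72 to 76 enter this comparison and the one against WT, so the values are given side by side and are not independent of each other.

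**Figure D3:**
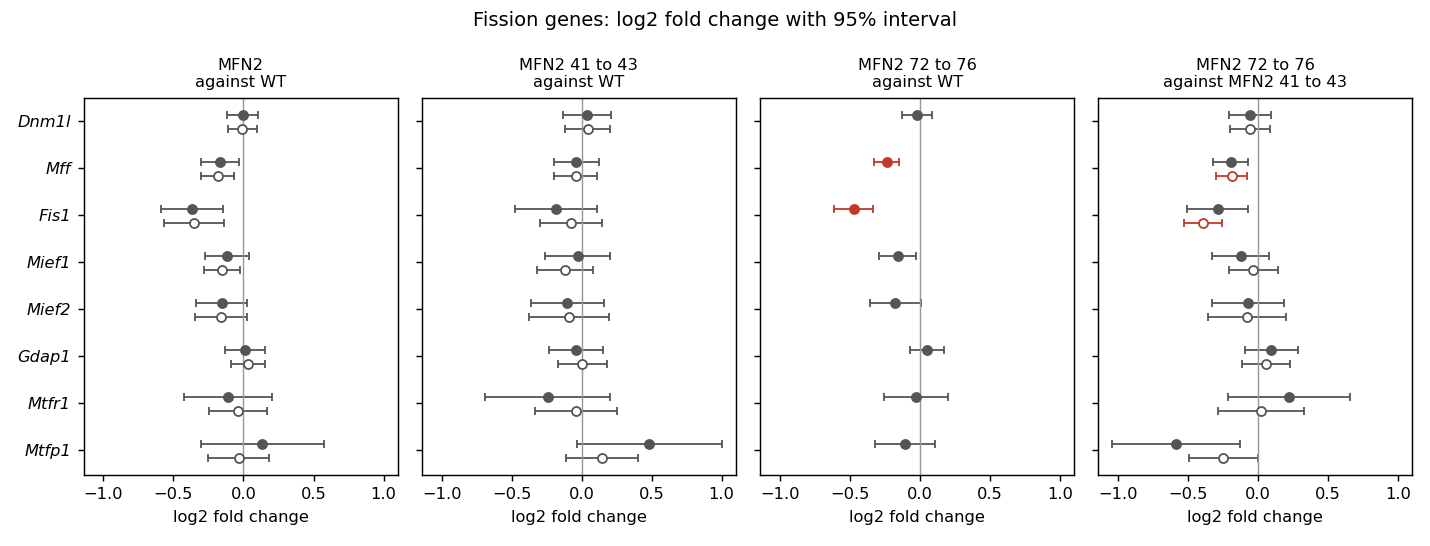
Log2 fold change (first named set against the second) with its 95% interval for each fission gene in the 4 comparisons; filled points include all libraries, open points leave out library 43, and red marks an adjusted p at or under 0.05 (edgeR). Red points are Fis1 and Mff in libraries 72 to 76 against WT and, without library 43, against libraries 41 to 43; Gdap1 and Dnm1l intervals hold 0 in all panels.

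The fusion genes were measured beside the fission genes. None of the 3 passed the edgeR test in any of the 4 comparisons, with or without library 43. DESeq2 called Opa1 in libraries 72 to 76 against 41 to 43, with and without library 43 (1775 and 2765 genes called). In the other comparisons DESeq2 called 0 of the 3. In libraries 72 to 76 against WT, Opa1, the inner membrane fusion GTPase, had a log2 fold change of 0.09 (SE 0.05, adjusted p = 0.191). In the same comparison Mfn1, the mitofusin paralog, had -0.06 (SE 0.06, adjusted p = 0.471) and Mfn2 -0.09 (SE 0.06, adjusted p = 0.259). Opa1 of libraries 72 to 76 did not overlap with libraries 41 to 43, as 18.2% of tested genes did not (log2 fold change 0.20, SE 0.06, unadjusted p = 0.0144, adjusted p = 0.120, edgeR), and in libraries 41 to 43 Mfn1 lay below WT without overlap, as did 4.28% of tested genes (-0.25, SE 0.13, adjusted p = 0.635), where library 43 was the lowest of all 12 at 76.9 CPM. Without library 43 the Mfn1 value was -0.11 (SE 0.07, adjusted p = 0.910) and the Opa1 value 0.17 (SE 0.06, adjusted p = 0.0776).

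Around these genes, 45 regulators and partners of Dnm1l-driven division were listed (44 tested, Mtfr2 being too low). In libraries 72 to 76 against WT, 14 of the 44 changed, 7 higher and 7 lower (31.8%, beside 23.5% of tested genes, with a median log2 fold change of 0.0075 beside 0.0045). Among the lower ones were 2 mitochondrial ubiquitin ligases that act on Dnm1l and the fusion proteins, March5 (MITOL; 47.2 ± 3.78 CPM in WT, 38.0 ± 2.87 CPM in libraries 72 to 76, log2 fold change -0.31, SE 0.07, adjusted p = 0.00711) and Mul1 (43.2 ± 4.31 and 35.1 ± 1.64 CPM, -0.29, SE 0.07, adjusted p = 0.0107). Usp30, the deubiquitinase of the outer membrane, was lower as well (-0.25, SE 0.06, adjusted p = 0.0123). So were 2 kinases that phosphorylate Dnm1l, Prkaca, the catalytic subunit of protein kinase A, and Cdk5, both with a log2 fold change of -0.23 (adjusted p = 0.0206 and 0.0237).

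Higher in libraries 72 to 76 were 2 subunits of calcineurin, the phosphatase that removes the protein kinase A mark from Dnm1l and so favours its recruitment. Ppp3ca, a catalytic subunit, rose from 388 ± 20.9 CPM in WT to 462 ± 24.1 CPM (log2 fold change 0.26, SE 0.06, adjusted p = 0.00682), and Ppp3r1, the regulatory subunit, from 226 ± 13.4 to 265 ± 12.8 CPM (0.24, SE 0.05, adjusted p = 0.00969). Ppp3cb, another calcineurin subunit listed, did not pass the test (0.14, SE 0.06, adjusted p = 0.101, edgeR). Gdap1l1, the paralog of Gdap1, rose from 43.8 ± 3.23 to 52.8 ± 3.31 CPM (0.27, SE 0.07, adjusted p = 0.0109), while Gdap1 itself did not pass the test. It was the 1 of 5 tested paralogs of the members that was called (beside 23.5% of tested genes). Library 43 held the highest Ppp3ca and Ppp3r1 values of the MFN2 group, 703 and 409 CPM. In the comparisons of 8 MFN2 with 4 WT mice, of libraries 41 to 43 with WT, and of libraries 72 to 76 with 41 to 43, 0 of 44 partners were called by edgeR (6, 6 and 11 at an unadjusted p under 0.05), beside an unadjusted share of 15.0%, 7.20% and 24.5% of tested genes. DESeq2 called 2, 0 and 6 partners, beside 200, 4 and 1775 of the 15942 tested genes, with Cdk5 and Gdap1l1 called for all mice. In libraries 41 to 43 against WT, the log2 fold changes of the partners named above varied in size (edgeR, none called). Gdap1l1 had 0.27 (SE 0.10), Cdk5 -0.21 (SE 0.07), Ppp3ca 0.52 (SE 0.16) and Ppp3r1 0.37 (SE 0.21). Usp30 had -0.17 (SE 0.10), Prkaca -0.16 (SE 0.14), Mul1 -0.06 (SE 0.13) and March5 0.0061 (SE 0.09). Libraries 41 and 42 lay inside the WT range for Ppp3r1 (224 and 231 CPM), Prkaca (213 and 220.5 CPM), Usp30, Mul1 and March5. Library 43 lay outside it for each of these, at 155 CPM for Prkaca. Libraries 41 and 42 lay above WT for Ppp3ca (451 and 495 CPM) and, narrowly, Gdap1l1 (51.5 and 47.4 CPM). For Cdk5 they lay below WT (46.7 and 47.9 CPM). Without library 43, edgeR again called 0 of 44 for all mice and for libraries 41 and 42 against WT (13 and 4 unadjusted, beside 21.1% and 5.67% of tested genes), and DESeq2 called 3 and 0, beside 741 and 9 tested genes. Without library 43, March5 (-0.34, adjusted p = 0.0131) and Mul1 (-0.34, adjusted p = 0.0118) were lower and Ppp3r1 (0.22, adjusted p = 0.0426) higher in libraries 72 to 76 than in 41 and 42 (3 of 44, 6.82%, beside 14.6% of tested genes). DESeq2 called 6 of 44 there, these 3 among them, beside 2765 of 15942 tested genes.

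**Figure D4:**
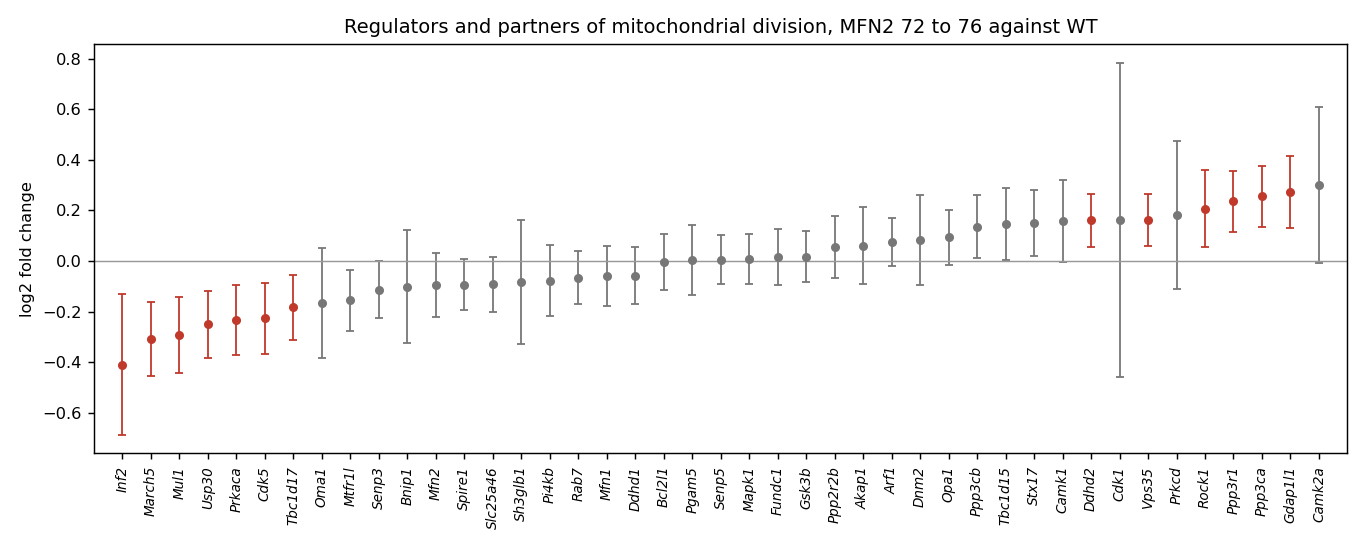
Log2 fold change with its 95% interval of 43 of the 44 tested regulators and partners of mitochondrial division in MFN2 libraries 72 to 76 against WT, ordered by value; red marks an adjusted p at or under 0.05 (edgeR). The 7 red points at the left are lower, from Inf2 (-0.41) to Tbc1d17 (-0.18), and the 6 red points at the right are higher, from Ddhd2 (0.16) to Gdap1l1 (0.27).

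Gdap1 is also a gene of axonal Charcot-Marie-Tooth disease, and of the 36 such genes listed (35 tested, Hspb3 being too low) 5 changed in libraries 72 to 76 against WT, 1 higher and 4 lower (14.3%, beside 23.5% of tested genes). Lower were the chaperone genes Dnajb2 (100 ± 7.69 CPM in WT, 71.5 ± 6.70 CPM, log2 fold change -0.48, SE 0.07, adjusted p = 9.442e-04), Hspb8 (-0.46, SE 0.11, adjusted p = 0.0104) and Hspb1 (-0.50, SE 0.15, adjusted p = 0.0327), and Inf2, an actin-nucleating formin that acts at the sites of mitochondrial division (-0.41, SE 0.12, adjusted p = 0.0387). Mme, the membrane metallopeptidase neprilysin, was higher (12.7 ± 2.92 and 18.95 ± 2.49 CPM, 0.58, SE 0.15, adjusted p = 0.0206). In the other 3 comparisons 0 of 35 were called by edgeR (6, 1 and 3 at an unadjusted p under 0.05, beside 15.0%, 7.20% and 24.5% of tested genes), and DESeq2 called 1, 0 and 2, beside 200, 4 and 1775 tested genes. Without library 43, edgeR called 0 of 35 for all mice and for libraries 41 and 42 against WT (7 and 2 unadjusted, beside 21.1% and 5.67% of tested genes), and DESeq2 called 3 and 0, beside 741 and 9 tested genes. Without library 43, 5 of 35 differed between libraries 72 to 76 and 41 and 42 (14.3%, beside 14.6% of tested genes), with Nefh, the heavy neurofilament subunit, higher (0.55, adjusted p = 0.00711), Gars, the glycyl-tRNA synthetase, higher (0.22), and the kinesin Kif5a (-0.27), lamin A/C gene Lmna (-0.27) and Dnajb2 (-0.40) lower. DESeq2 called 6 of 35 there, these 5 among them.

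Summed marker genes are given for WT and for libraries 72 to 76, and in part for other libraries, with no test. The 5 astrocyte markers, with Gfap the most abundant, summed to 3727 ± 488 CPM in WT and 2290 ± 484 CPM in libraries 72 to 76, and the 5 microglial markers to 183 ± 20.2 and 141 ± 10.1 CPM. MFN2 libraries 41 and 42 lay on both sides of the WT range, at 4860 and 2733 CPM for astrocytes and 238 and 146 CPM for microglia. The 6 neuron markers summed to 9352 ± 1359 and 10297 ± 480 CPM, and the 4 endothelial markers to 109 ± 10.4 and 119 ± 9.72 CPM, with ranges that overlapped. Overlapping too were the oligodendrocyte sums (26864 ± 3419 and 26211 ± 4698 CPM), the motor neuron sums (242 ± 86.7 and 237 ± 25.8 CPM) and the caudal Hox sums (263 ± 22.0 and 271 ± 14.0 CPM). In these bulk samples fewer cells of a type and less RNA per cell cannot be told apart. The 4 skeletal muscle markers ran from 1.22 CPM in WT library 45, with Ckm at 0, to 206 CPM in WT library 47 and were 200 CPM in library 73. Without library 73, Fis1 and Mff in libraries 72 to 76 against WT had log2 fold changes of -0.46 and -0.24, both still called. The part of the astrocyte and microglial markers in the results was not tested.

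In libraries 72 to 76 against WT, tested genes also differed by base composition. With the genes in 4 equal bins by the GC content of their longest transcript, the median log2 fold change was 0.10 in the lowest bin, then 0.03, -0.03 and -0.09 in the bins above it. Fis1 (54.4% GC) lies at the lower edge of the top bin, whose median was -0.09 and in which 769 genes were called lower and 219 higher. Mff (37.3% GC) lies in the lowest bin, in which 231 genes were called lower and 765 higher, and its -0.24 thus had the opposite sign to its bin's median. In libraries 41 to 43 against WT the 4 medians lay between -0.0116 and 0.0099, and without library 43 between -0.0135 and 0.0092. The part of base composition in the Fis1 difference was not tested.

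**Figure D5:**
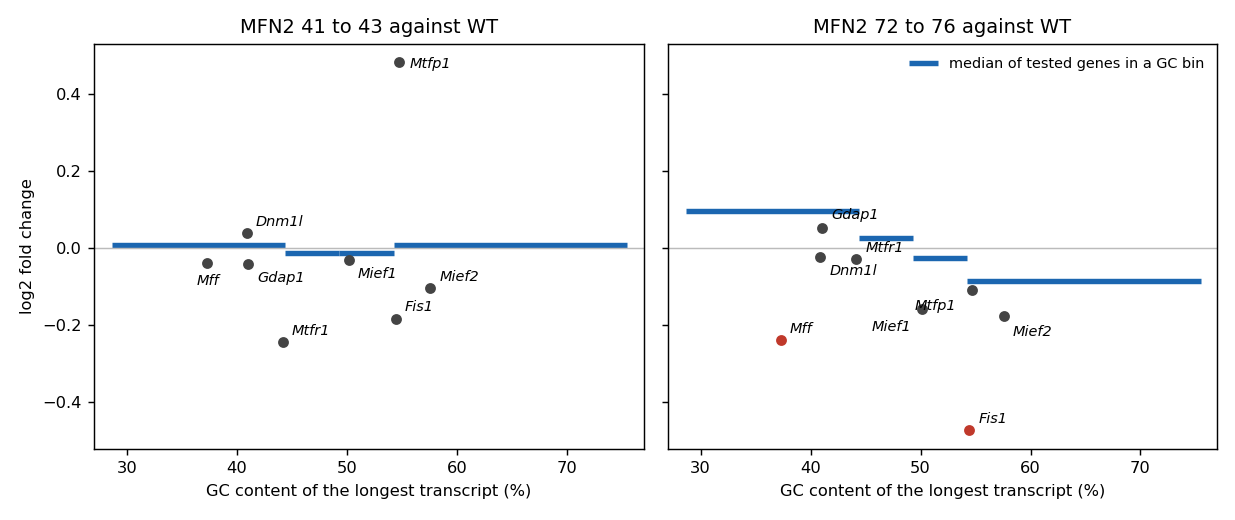
Log2 fold change of each fission gene (points, red for an adjusted p at or under 0.05) against the GC content of its longest transcript, with the median of all tested genes in each GC bin as a blue line, for MFN2 libraries 41 to 43 (left) and 72 to 76 (right) against WT. On the right the lines step down from 0.10 to -0.09, and Fis1 and Mff lie below the line of their own bin.

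Gdap1 was compared with every other tested gene over the 11 libraries other than 43, on log2 CPM with the mean of each of the 3 sets taken off. The 4 most similar were Lonrf2 (Pearson r = 0.986), Syp, the synaptic vesicle protein synaptophysin (0.974), Rtf1, a subunit of the Paf1 complex (0.970), and Atp6v0a1, a subunit of the vacuolar proton pump (0.965). These are descriptions over 11 points that share depth and dissection. Over 12 libraries with no means taken off, 0 of these 4 were among the nearest 5. Their ranks there were 1073 (Lonrf2), 7935 (Syp), 5655 (Rtf1) and 7496 (Atp6v0a1). Among the other members Dnm1l (r = 0.77, rank 615 of 15941) came closest to Gdap1, followed by Mtfp1 (0.63) and Mief2 (0.50), while Mtfr1 (-0.15), Mff (-0.17), Fis1 (-0.26) and Mief1 (-0.48) had negative values. Over all 12 libraries with no means taken off, this order changed: Mtfr1 had r = 0.42 and Dnm1l 0.40, and Mtfp1 turned to -0.36.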

How the data were processed

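The files hold whole-number counts per Ensembl gene for each of 12 libraries, deposited by the authors without normalization. Per the study's methods and the labels, poly(A) RNA was sequenced as paired 75-base reads on a NextSeq 500, trimmed of adapters and aligned with STAR to GRCm38 (GRCm38.p6 in the submitters' processing notes). Which program counted the reads, and whether by strand, is not given in the sources used here. The labels name a mRNA kit, the methods a total RNA kit, and 1 heading 3′ sequencing, which would make levels per length less exact. No replicates of a group were duplicates: the 34 pairs within a group had a chi-square per degree of freedom of 5.34 or more.

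Genes above 1 CPM in at least 3 of 12 libraries were tested with edgeR 4.0.16 (R 4.3.3; TMM, glmQLFit in its legacy form with the robust option, glmQLFTest) on the libraries compared, with Benjamini-Hochberg adjustment over 15942 genes and a threshold of 0.05. Intervals are 95% and come from the fitted coefficient and its SE. Log2 CPM used a prior count of 2. The scripts were tested on simulated data. DESeq2 1.42.0, other scalings, no filter, a single fit of all libraries, the number run as a covariate and leaving out each library were alternatives; DESeq2 without library 43 and DESeq2 over the lists were added after seeing the data. Exon lengths, GC content and positions come from GENCODE M21 and promoters from RefSeq. The members and lists were chosen with earlier results of these data known. Named were all 8 members, Mfn2, Mfn1 and Opa1, at most 8 called genes per list and comparison by lowest adjusted p, and the genes nearest to Gdap1 (4 of 5; 1 of them, 1 partner gene and 1 marker list are not reported here); Inf2 among the neuropathy genes falls under that rule, and the 2 ends of the partner plot were named after their values were seen. Also named was Ppp3cb, a listed calcineurin subunit that was not called. Replicates are separate mice, so p-values measure the spread between these animals.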

Additional observations from a re-analysis of the deposited data

Results flagged for a closer look

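Within groups of 4 to 10 samples, 42 sets of values were searched for a single library whose gap to its nearest neighbour took up an unusually large share of the range, and 8 were found where chance gives about 2.1. Among the fission genes, Fis1 of WT library 44 was the lowest of its group, at 55.0 CPM with a gap of 0.959 of the range, and Mff of WT library 46 the highest, at 148 CPM with a gap of 0.836 of the range. Mtfp1 of MFN2 library 43 was the highest of its group at 35.4 CPM, with a gap of 0.745 of the range. Library 43 accounted for 3 of the 8, the others being its forebrain neuron marker sum (4685 CPM, 0.985 of the range) and its caudal Hox sum (41.6 CPM, 0.840 of the range). The astrocyte marker sum of WT library 45 was the highest of its group at 4454 CPM, with a gap of 0.877 of the range. The skeletal muscle marker sums of WT library 47 (206 CPM, 0.832 of the range) and of MFN2 library 73 (200 CPM, 0.864 of the range) were the highest of theirs. Leaving out WT library 44 moved Fis1 in libraries 72 to 76 against WT from -0.47 to -0.55 on the log2 scale.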

How the results depend on the processing

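Of 248 values of single fission genes under alternatives other than only leaving out a library, 233 kept their direction and side of the threshold, 6 passed it newly and 9 changed sign. Fis1 and Mff in libraries 72 to 76 against WT stayed under an adjusted p of 0.05 in all 16 alternatives, with log2 fold changes of -0.55 to -0.41 and -0.25 to -0.17. For 8 MFN2 against 4 WT mice, DESeq2 called 200 genes. For libraries 41 to 43 against WT, DESeq2 called 4 genes, and 0 were called without the filter (1513 unadjusted p under 0.05) or in 1 fit of 12 libraries (2381 unadjusted). In 1 fit of 12 libraries, 1224 genes were called for libraries 72 to 76 against WT. For libraries 72 to 76 against 41 to 43, DESeq2 called 1775 genes and the single fit 1339, each with 1 fission gene, Mff (-0.20 and -0.19, adjusted p = 1.113e-04 and 0.0357). Dnm1l in all mice changed sign to 0.0011 with DESeq2's size factors in edgeR, 0.043 by library size only, 0.0014 with DESeq2 and 0.024 with the number run as a covariate, which also took Gdap1 to -0.055. By library size only, Dnm1l (0.044) and Mtfr1 (0.036) changed sign in libraries 72 to 76 against WT, and Dnm1l (0.0011) against libraries 41 to 43. With DESeq2 and no library 43, an alternative added after seeing the data, 741 genes and 2 fission genes were called for all mice (Mtfp1 changing sign to -0.030), 9 genes for libraries 41 and 42 against WT, and 2765 genes and 2 fission genes for libraries 72 to 76 against 41 and 42. The causes were not tested.

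Leaving out 1 library at a time gave 0 to 19 genes called for all mice (19 without library 43, otherwise at most 7; 0 fission genes throughout), 0 to 2 for libraries 41 to 43 against WT (0 fission genes), and 2355 (without library 45) to 4517 (without library 44) for libraries 72 to 76 against WT, with 2 to 3 fission genes. The third was Mief1, without library 44 (adjusted p = 0.0434) or 76 (adjusted p = 0.0414). For libraries 72 to 76 against 41 to 43 it gave 26 (without library 74) to 2325 (without library 43, otherwise at most 254), with 0 to 2 fission genes. Fission gene values that crossed 0 were Dnm1l (-0.028 to 0.0088), Gdap1 (-0.014 to 0.033) and Mtfp1 (-0.036 to 0.19) for all mice, Mief1 (-0.12 to 0.043) and Gdap1 (-0.11 to 0.0032) for libraries 41 to 43, Dnm1l (-0.049 to 0.0022) and Mtfr1 (-0.080 to 0.033) for libraries 72 to 76 against WT, and Mief2 (-0.17 to 2.651e-04) inside the MFN2 group. No paired analysis was possible because no number is shared between the groups. Precision is limited by 4 WT and 3 MFN2 libraries in the low run.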
